A study of Mus musculus with 20 samples.

Results

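The respiratory chain subunits that are encoded in the nucleus were followed in the brown adipose tissue (BAT) of mice. Members were all protein-coding mouse genes whose symbol begins with Ndufa, Ndufb, Ndufc, Ndufs or Ndufv and a digit, with Uqcr, with Cox4 to Cox8 or with Atp5, together with Sdha to Sdhd, Cyc1 and Cycs, leaving out assembly factors and predicted genes. Of the 55471 gene IDs in the count tables, 87 met this rule: 35 of complex I, 4 of complex II, 9 of complex III, 1 for cytochrome c, 20 of complex IV and 18 of complex V. The rule uses names only, so no measured value chose a member. It also takes in Atp5s and Cox7a2l, which act beside the ATP synthase and in supercomplexes, and it passes over subunits under other names, such as Ndufab1. Ndufa4 and Ndufa4l2 were placed with complex IV, where the Ndufa4 protein resides.

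The 20 libraries of stranded poly(A) mRNA fell into 4 groups of 5. BAT of CEBPB wild-type mice (WT) was taken at room temperature (RT) or after 4 h of cold stress, and so was BAT of mice with an adipose-specific knockout of CEBPB (KO), a transcription factor also called C/EBP beta. All the mice share the tissue, and genotype and temperature are the differences the labels give. The age of the mice, the transgene that removes the gene in adipose cells, and the temperature used for cold are not given in the sources used here. The labels do not say that the libraries come from separate mice, so every p below measures the spread between these libraries, which may be technical.

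Complex I takes electrons from NADH and complex II from succinate, and both pass them to ubiquinone. Complex III hands them on to cytochrome c, a small heme protein that moves along the inner membrane, and complex IV gives them to oxygen. Complexes I, III and IV pump protons, and complex V, the ATP synthase, lets protons back to make ATP. In brown adipocytes UCP1 opens another way back for the protons, so that oxidation yields heat, and these cells are known for many mitochondria with a large respiratory chain and little ATP synthase. Each complex except II also holds subunits encoded in mitochondrial DNA.

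Levels are given as CPM, a gene's counts relative to the library's total after TMM scaling (which assumes that most genes do not change between libraries), and, where genes are compared, as CPM per kb of annotated exon. Changes are log2 fold changes ± SE from edgeR's quasi-likelihood test, with p adjusted by Benjamini-Hochberg over the 15233 genes tested, and a gene rose or fell where that p was under 0.05. Libraries held 27.07 to 55.18 M gene counts, of which the 87 members took 2.97% to 3.47% and mitochondrially encoded genes 28.8% to 36.0%. Cebpb was at 75.5 to 130 CPM in WT at RT, 108 to 167 in WT in the cold, 0.208 to 0.856 in KO at RT and 1.61 to 2.27 in KO in the cold, so each library matched its genotype label. Brown adipocyte markers were at a summed 7663 to 12030 CPM at RT and 17752 to 21377 CPM in the cold. Of these 12 markers, 2 of which (Cox7a1 and Cox8b) are members, 5 rose and 5 fell in WT and 6 rose and 4 fell in KO, and of 8 markers of all adipocytes 1 rose in each genotype and 5 and 6 fell. The 18 skeletal muscle markers summed to 61.9 to 1624 CPM in WT and 88.4 to 726 CPM in KO at RT, against 53.8 to 93.7 CPM in WT and 52.2 to 62.0 CPM in KO in the cold.

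Most members were high. Per kb of exon, the median over tested members was 347 CPM for complex II, 350 for complex III, 328 for complex IV, 111 for complex I and 98.6 for complex V, as means of 20 libraries. With the longest transcript as the length the median was 142 for complex I and 171 for complex V. Which of these 2 complexes is higher therefore depends on the length used. The highest were Cox6b1 at 1042 CPM per kb, which joins the 2 monomers of complex IV, and Atp5b at 1023, the catalytic beta subunit of the ATP synthase. Cox8b followed at 932, Atp5a1, the alpha subunit, at 857 and Cox4i1 at 671. Cox6b1, Atp5b, Cox8b and Atp5a1 filled the first 4 places in every group, and with the longest transcript as the length Atp5b came first at 2262, before Cox4i1 at 1359 and Cox6b1 at 1194. Sdha, the flavoprotein of complex II, stood at 480, Uqcrfs1, the Rieske iron-sulfur protein of complex III, at 466, and Cycs, which encodes cytochrome c, at 186.

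**Figure D1:**
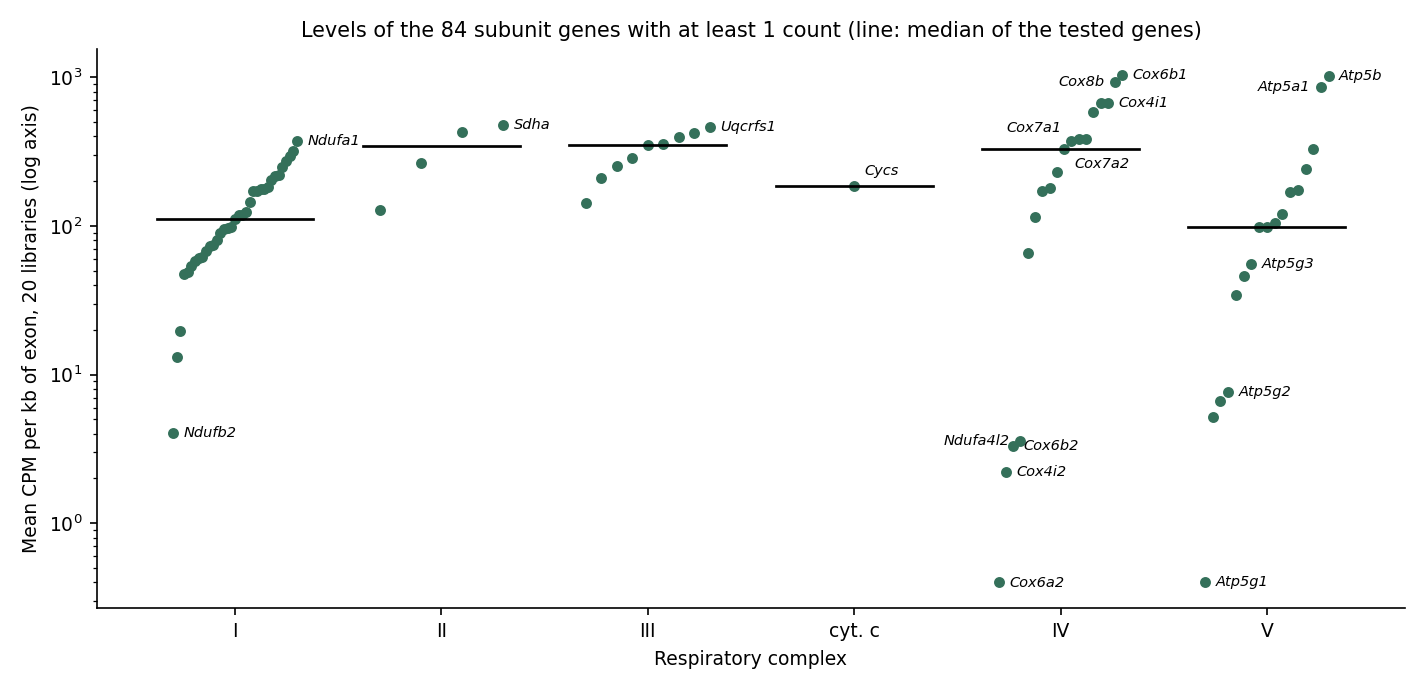
Mean level over 20 libraries of each subunit gene with at least 1 count, as CPM per kb of exon on a log axis, by complex (cyt. c is Cycs), with selected genes named. Medians (lines) lie at 111 for complex I, 347 for II, 350 for III, 328 for IV and 98.6 for V, and the low points of IV and V are isoforms at 4 CPM per kb or less and the genes Atp5g1, Atp5g2, Atp5l and Atp5s.

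Several complex IV subunits exist as isoforms of different tissues. Cox7a1 and Cox8b, known as heart and muscle forms that brown fat also makes, were near or above their general partners: the ratio of Cox7a1 to Cox7a2 per kb was 0.846 to 1.36 over the 20 libraries (median 1.17), and that of Cox8b to Cox8a 1.33 to 1.81 (median 1.61). With the longest transcript as the length the medians were 0.898 and 1.43, so which of Cox7a1 and Cox7a2 is higher depends on the length used. Cox6a2, the muscle form of the third such pair, did not follow them. It was at 2.416 and 1.004 CPM in WT at RT replicates 1 and 2, 0.0505 in replicate 5 and 0 in replicates 3 and 4, at 0.0297 to 0.850 in KO at RT and at 0 to 0.0392 in all 10 cold libraries. The 18 muscle markers had a mean of 5.84 and 4.63 log2 CPM in WT at RT replicates 1 and 2, and of 4.75 and 4.65 in KO at RT replicates 3 and 4, where Cox6a2 was at 0.717 and 0.850 CPM. The part of muscle in the Cox6a2 counts was not tested.

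The remaining isoforms were low. Cox4i2, the form known from lung and low oxygen, had 0.00348 times the level of Cox4i1 per kb, Cox6b2, the testis form, 0.00308 times that of Cox6b1, and Ndufa4l2, known as a hypoxia-responsive gene, 0.00909 times that of Ndufa4, as medians of 20 libraries. Cox7b2 and Cox8c, both known from testis, had no count in any library, which allows up to 0.00411 CPM (3 counts over 20 libraries, counting error only). They, Cox6a2 and a second gene ID named Atp5o, also without a count, were the 4 members that did not pass the filter on low counts, which left 83 tested. The tested members closest to the filter were Cox4i2 at a mean of 1.74 CPM and Atp5g1 at 1.97 CPM.

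The genes Atp5g1, Atp5g2 and Atp5g3 encode the same mature c subunit of the proton-carrying ring of the ATP synthase. Atp5g3 made 84.7% to 89.2% of their summed level per kb, Atp5g2 9.89% to 14.8% and Atp5g1 0.416% to 0.888%. These shares carry a limit of the counting, since reads that align to several places were not assigned to genes (18.3% to 21.4% of reads per library). All of the Atp5g2 coding sequence and 99.7% of that of Atp5g1, cut into stretches of 50 bases, recur in transcripts of other annotated genes, mostly processed pseudogenes. All of the coding sequence of Cycs, Atp5l, Cox7c and Ndufb4 also recurs in other annotated genes. Over 50% was shared for 16 of the 87 members, Uqcrb, Ndufa12, Atp5h, Ndufb2 and Atp5f1 among them, and 46.8% for Atp5o. For the 14 of those 16 with over 0.5 CPM per kb the median level was 89.8 CPM per kb, against 177 for the other 68. For Atp5o, 32.9% was shared with the second gene ID of that name, whose span overlaps it on the same strand, and reads in more than 1 gene were not counted either. Levels of such genes may be too low, and a change in them rests on the reads that map to 1 place and lie in 1 gene.

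Cycs had the largest rise in the cold of all members, in both genotypes. In WT it was at 451, 543, 488, 513 and 496 CPM in the 5 RT libraries and at 686, 717, 792, 800 and 748 CPM in the 5 cold libraries. In KO it was at 543, 539, 573, 588 and 531 CPM at RT and at 703, 747, 778, 723 and 713 CPM in the cold. All 10 cold libraries lay above all 10 RT libraries. The means were 498 ± 34 and 749 ± 49 CPM in WT (SD, n = 5) and 554 ± 25 and 733 ± 30 CPM in KO. Cycs rose by 0.59 ± 0.06 in WT (edgeR adjusted p = 3.0e-08), a 1.503-fold change, and by 0.40 ± 0.06 in KO (edgeR adjusted p = 4.3e-06), a 1.321-fold change. Both rises passed in every alternative analysis run. Gm10053, a gene annotated as protein-coding that holds all of the Cycs coding stretches, was at 2.53 to 6.12 CPM. Cyc1, the cytochrome c1 of complex III that passes electrons to Cycs, changed by 0.07 ± 0.06 in WT and 0.00 ± 0.07 in KO and did not pass the test.

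**Figure D2:**
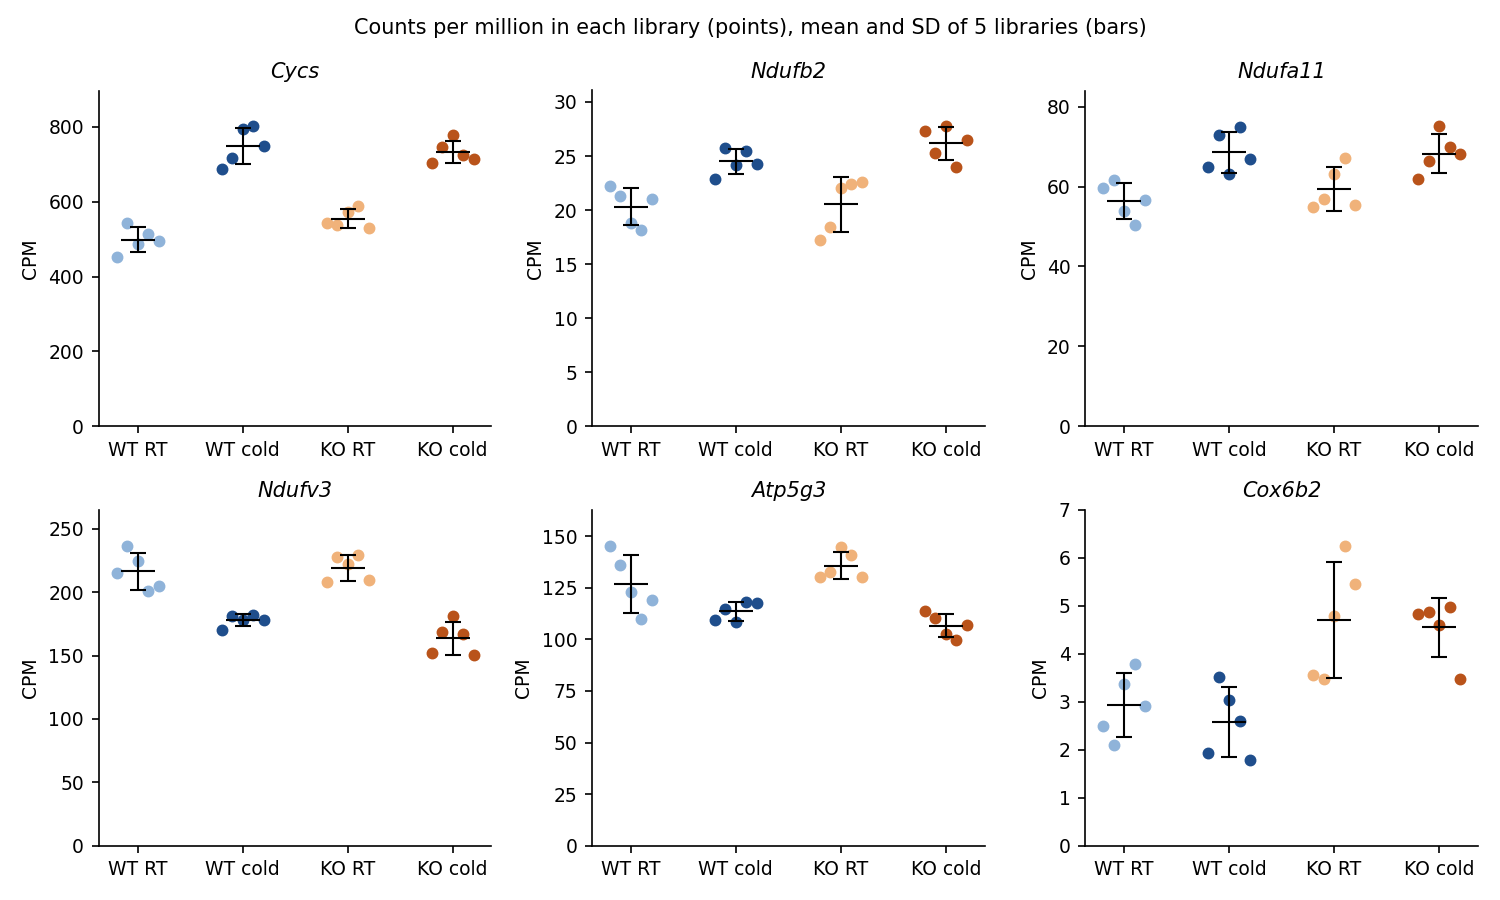
CPM of 6 members in each library (points, 5 per group), with the mean and SD of the group, each axis starting at 0. The cold libraries lie above the RT libraries for Cycs and Ndufb2 and below them for Ndufv3 in both genotypes, and Cox6b2 lies near 3 CPM in WT and between 3.47 and 6.25 CPM in KO.

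The 250 bases before the start of Cycs, Ndufb2 and Atp5g3, and parts of those before Ndufa11, are printed as examples of members with the largest rises in WT and of a member that fell. They were taken from RefSeq on GRCm38.p6, in which 69 of the 86 member symbols had a window of 250 bases before and 50 after the start. Capitals mark letters of the cAMP response element (CRE, TGACGTCA or its short form TGACGT), of the NRF1 motif (GCGCATG, or the palindrome it forms with its reverse complement) and of the core motif of estrogen-related receptors (AAGGTCA), on either strand. The letters of each short form are part of those of its full motif, and a short form was also marked where it stood alone. In Cycs (chr6:50566570-50566819, minus strand), the full CRE began 169 bases before the start, TGACGT on the other strand 15 bases before it, and GCGCATG on the other strand 59 bases before it. An exon of the antisense gene 5430402O13Rik overlaps part of this stretch. In Ndufb2 (chr6:39592315-39592564, plus strand) the CRE began 14 bases and AAGGTCA 181 bases before the start. In Ndufa11 (chr17:56717594-56717623 and chr17:56717686-56717761, plus strand) the CRE began 158 bases and the NRF1 palindrome 60 bases before the start. In Atp5g3 (chr2:73911327-73911576, minus strand), AAGGTCA lay on the other strand, 52 to 46 bases before the start.
Cycs: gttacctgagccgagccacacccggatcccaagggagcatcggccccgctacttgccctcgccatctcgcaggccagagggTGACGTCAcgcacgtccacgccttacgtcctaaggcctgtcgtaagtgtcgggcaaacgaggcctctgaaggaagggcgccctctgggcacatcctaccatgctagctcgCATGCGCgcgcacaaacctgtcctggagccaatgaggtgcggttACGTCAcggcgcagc
Ndufb2: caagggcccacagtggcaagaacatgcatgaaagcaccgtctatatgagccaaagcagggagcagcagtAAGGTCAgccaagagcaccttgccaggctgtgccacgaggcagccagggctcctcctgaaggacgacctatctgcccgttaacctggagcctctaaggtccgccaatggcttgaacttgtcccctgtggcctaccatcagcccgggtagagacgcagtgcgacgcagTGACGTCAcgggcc
Ndufa11, farther stretch: ttacctttccTGACGTCAcgggcgtctctg
Ndufa11, nearer stretch: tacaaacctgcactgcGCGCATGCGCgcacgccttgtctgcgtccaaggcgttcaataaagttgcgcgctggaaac
Atp5g3: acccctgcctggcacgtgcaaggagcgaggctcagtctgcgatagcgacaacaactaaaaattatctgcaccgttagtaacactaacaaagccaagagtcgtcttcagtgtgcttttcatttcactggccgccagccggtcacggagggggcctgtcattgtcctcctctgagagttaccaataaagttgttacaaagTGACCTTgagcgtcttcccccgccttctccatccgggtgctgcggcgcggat

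Over all member windows of 300 bases, TGACGTCA was found in 5 of 74 (6.76%), against 1.79% of the 32851 windows of all genes. These 5 genes were Cycs, Ndufa11, Ndufb2, Ndufa10 and Uqcrfs1. The first 3 had the largest rises of all members in WT (0.59, 0.28 and 0.27), while Ndufa10 and Uqcrfs1 changed by 0.03 and 0.12 and did not pass. TGACGT was found in 14.9% of member windows and 7.51% of all. Its further genes were Cox6b1 and Ndufa5, which rose in WT, and Atp5b, Atp5s and Cox8a, which did not pass. The NRF1 palindrome was found in 6.76% of member windows and 0.971% of all, and GCGCATG in 18.9% and 3.91%. Of the 5 genes with the palindrome, Ndufa11 and Atp5k rose in WT, and Atp5g2, Cox6a1 and Uqcrc1 did not pass. AAGGTCA was found in 10.8% and 4.72%, its longer form TCAAGGTCA in 2.7% and 0.423%, and CCGGAAGT, a motif of GABP, in 6.76% and 3.89%. Among the genes with CCGGAAGT, Atp5h, Uqcr11 and Uqcrh rose in WT, and Cox8a and Ndufs3 did not pass. With AAGGTCA, Atp5k, Atp5l and Ndufb2 rose in WT, Atp5g3 fell, and the others did not pass. With GCGCATG, Cycs, Ndufa11, Ndufb6, Atp5k, Atp5l and Uqcr11 rose in WT, and the others did not pass. The motifs were chosen with the members' values known, windows were matched by name, and a match is a description and not a bound site. A link between any motif and the cold changes was not tested.

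In WT, after Cycs, 24 of 65 members outside the core and catalytic set rose in the cold, by up to 1.21-fold, and 2 fell. With TMM scaling, none of 17 core and catalytic members, leaving out Cycs, passed, with changes of -0.08 (Ndufs3) to 0.13 (Atp5a1), and the difference between the 2 sets was not tested. Calls in the core set were not counted under other scalings. Of all 25 rises, Cycs alone also passed with libraries scaled to their totals. In all, 25 of the 83 tested members rose and 2 fell. Of all tested genes 56.4% passed the test, 26.2% higher and 30.2% lower. In this fit with TMM scaling the share of members that rose (30.1%) was near that background, and the share that fell (2.41%) was under it. With relative log expression scaling 36 of 83 rose, beside 27.9% of all genes, and with library totals 1 rose, beside 19.2%. How the share that rose stands to the background therefore depends on the scaling. With TMM the median member changed by 0.08, against -0.05 for all genes, and no member changed by more than 0.59 in either direction. The 5 cold libraries lay above all 5 RT libraries for 13 members and below them for 1, where 18.9% and 19.3% of all genes did so.

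In complex I 10 of 35 members (28.6%) rose in WT, near the 26.2% of all genes. With TMM scaling all 10 were among the 28 accessory subunits, which do not carry the redox centers. The difference from the 7 core subunits was not tested. Ndufa11, an accessory subunit of the membrane arm, was at 50.4 to 61.7 CPM (median 56.7) at RT and at 63.2 to 74.9 CPM (median 66.8) in the cold, without overlap, and rose by 0.28 ± 0.07 (edgeR adjusted p = 0.0020). Ndufb2, at the far end of the membrane arm, went from 18.2 to 22.3 CPM at RT to 22.9 to 25.7 CPM in the cold, and rose by 0.27 ± 0.08 (edgeR adjusted p = 0.0049). Ndufb6, Ndufa2, Ndufb7, Ndufb9, Ndufb5, Ndufa3, Ndufa12 and Ndufa5 rose by 0.15 to 0.24. Ndufa3 and Ndufa5 lost the call in at least 1 alternative, and Ndufa12 was at 0.14 without WT at RT replicate 1 (edgeR adjusted p = 0.057). The core subunits Ndufv1, Ndufv2, Ndufs1, Ndufs3, Ndufs7 and Ndufs8 of the arm that takes up electrons changed by -0.08 to 0.09 and none passed.

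Ndufv3, an accessory subunit beside the NADH-binding end of complex I, moved the other way. It was at 201 to 237 CPM in WT at RT and at 170 to 182 CPM in WT in the cold, and the groups did not overlap. It fell by 0.28 ± 0.06 in WT (edgeR adjusted p = 2.9e-04) and by 0.42 ± 0.06 in KO (edgeR adjusted p = 2.2e-06), from 208 to 230 CPM to 150 to 182 CPM. Both falls passed under every alternative analysis run, including the scaling to library totals.

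In complex III, Uqcrh, the hinge protein at the cytochrome c1 side, rose by 0.24 ± 0.06 in WT, and Uqcr11 and Uqcrb rose by 0.16 and 0.15. The call of Uqcr11 (edgeR adjusted p = 0.046) was lost with a library left out and in other alternatives. Uqcrfs1, Uqcrc1, Uqcrc2 and Cyc1 changed by 0.05 to 0.12 without passing. In complex IV, Cox7c, Cox7a2, Cox6b1, Cox5a and Cox7b rose, by 0.15 to 0.23. Cox7c was at 118.6 ± 7.56 CPM at RT and 138.7 ± 7.97 CPM in the cold in WT (SD, n = 5). The tissue forms did not move with Cox7a2: Cox7a1 changed by -0.04 ± 0.08 and Cox8b by -0.02 ± 0.08, and neither passed. Complex II had no call among its 4 members, which changed by -0.03 to 0.06.

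In complex V 6 of 17 tested members (35.3%) rose in WT, beside 26.2% of all genes. Of these, Atp5o (0.22 ± 0.05), Atp5h (0.19 ± 0.06) and Atp5f1 (0.15 ± 0.05) sit in the peripheral stalk that holds the motor still. Atp5j, also of that stalk, was at 105.2 ± 2.55 CPM at RT and 103.9 ± 5.57 CPM in the cold in WT. It did not pass. Atp5o was at 77.2 to 87.0 CPM at RT and 91.9 to 102 CPM in the cold, without overlap. The other members of complex V that rose were small subunits of the membrane part, Atp5mpl (0.23 ± 0.07), Atp5k (0.18 ± 0.07) and Atp5l (0.16 ± 0.06). Atp5k and Atp5l lost the call both with a library left out and in other alternatives. Atp5b and Atp5a1, the catalytic pair, changed by 0.12 ± 0.06 and 0.13 ± 0.07 and did not pass. Atp5g3 fell by 0.16 ± 0.06 (edgeR adjusted p = 0.042), from 110 to 145 CPM to 108 to 118 CPM with overlap. That fall was lost when any library other than WT at RT replicate 4 was left out singly, with values of -0.15 to -0.10 and an edgeR adjusted p of 0.062 to 0.17 over those fits, and also under relative log expression scaling and in DESeq2 (-0.13 in both).

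**Figure D3:**
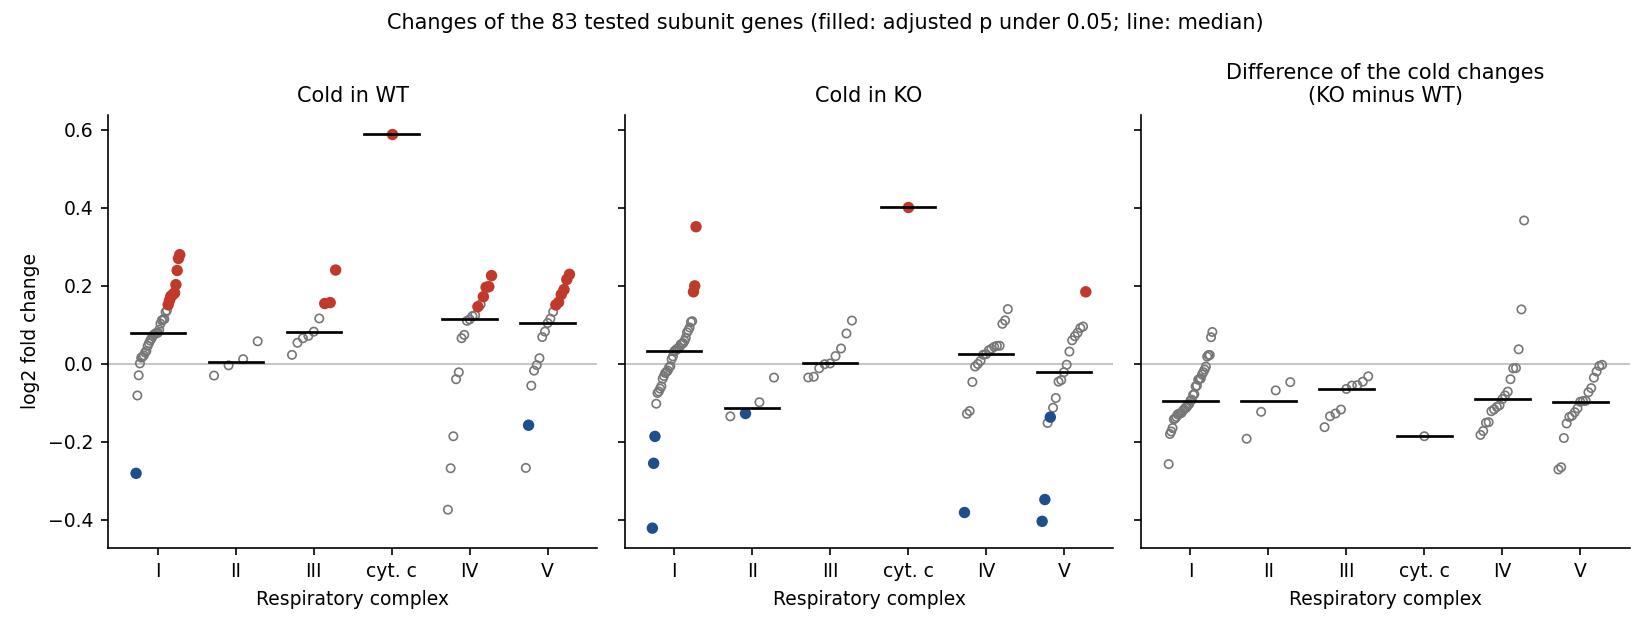
Log2 change of each of the 83 tested members by complex, for cold in WT, cold in KO and the difference of the 2 cold changes, with filled points for an adjusted p under 0.05 and lines for medians. Filled points above 0 are 25 in WT and 5 in KO, filled points below 0 are 2 and 8, and the difference has no filled point, with 75 of 83 members below 0.

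In KO, Cycs and a few subunits of complexes I and V rose in the cold, and Ndufv3, Atp5g3 and 6 others fell. Of the 83 tested members 5 rose (6.02%) and 8 fell (9.64%). Of all genes 59.2% were called, 27.5% higher and 31.7% lower, so both shares of members were under the background. The median member changed by 0.01 and the median gene by -0.05. The cold libraries lay above all RT libraries for 2 members and below for 5, beside 21.6% and 23.2% of all genes. Muscle markers fell in the cold in both genotypes, 17 of 18 in each. In a fit that also held each library's mean muscle marker level, 4 members rose and 2 fell in KO (Ndufv3 and Ndufa4l2), and 24 rose and 1 fell in WT. Of all 15233 genes that fit called 3181 higher and 3388 lower in KO, against 4195 and 4824 without the muscle term. In WT it called 3512 higher and 3765 lower, against 3997 and 4597.

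The 5 members that rose in KO also rose in WT. After Cycs, Ndufb2 rose by 0.35 ± 0.08 (edgeR adjusted p = 5.2e-04), from 17.2 to 22.6 CPM at RT to 24.0 to 27.7 CPM in the cold, without overlap, and passed in every alternative analysis. Ndufa11 rose by 0.20 ± 0.07, Ndufa12, which is added late to the NADH-binding arm, by 0.18 ± 0.06 and Atp5h by 0.18 ± 0.06. Without KO at RT replicate 4 or without KO in the cold replicate 1 the number that rose was 11.

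The falls in KO reached several complexes. After Ndufv3, Atp5g3 fell by 0.35 ± 0.06 (edgeR adjusted p = 8.3e-05), from 130, 133, 145, 141 and 130 CPM at RT to 114, 110, 102, 99.9 and 107 CPM in the cold, without overlap. Ndufs3, a core subunit of complex I, fell by 0.26 ± 0.06, from 211 to 250 CPM to 181 to 205 CPM, and Ndufb3, an accessory subunit of the membrane arm, by 0.19 ± 0.05. Atp5c1, the rotating gamma subunit, fell by 0.14 ± 0.05 and Sdhc, a membrane anchor of complex II, by 0.13 ± 0.05. The low-level genes Atp5s and Ndufa4l2 fell by 0.40 ± 0.13 and 0.38 ± 0.13, from 11.6 ± 2.1 to 8.72 ± 1.4 CPM and from 4.48 ± 0.84 to 3.44 ± 0.45 CPM.

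These falls were not equally stable. Ndufv3, Atp5g3, Ndufs3 and Ndufb3 passed whichever single library was left out, but in the fit with the muscle marker level Atp5g3, Ndufs3 and Ndufb3 were at -0.18, -0.14 and -0.17 and did not pass. That fit called fewer of all genes as well, so the loss is not particular to these members. Atp5s did not pass without KO at RT replicate 4 or KO in the cold replicate 5 (-0.26 and -0.29), and Ndufa4l2 not without KO at RT replicate 5 or KO in the cold replicates 2 or 5 (-0.24, -0.30 and -0.31). Sdhc passed without WT at RT replicate 1 or 2 only, and lost the call in the other 18 fits with values of -0.12 to -0.08, and Atp5c1 lost it in 16 of 20 with values of -0.12 to -0.09. Scaling factors were computed anew in each such fit, and the median of all genes moved by up to 0.03. The number that fell was 5 without KO at RT replicate 4 or KO in the cold replicate 2, and 4 without KO in the cold replicate 5.

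How many members rise depends on what is held constant between the RT and the cold libraries. When libraries were scaled to their totals alone, without TMM, the median of all genes moved to -0.18 in both genotypes, 1 member (Cycs) rose and 9 fell in WT, and 2 (Cycs and Ndufb2) rose and 30 fell in KO. This scaling was tried after the data were seen. Under that scaling 19.2% of all genes were called higher and 39.6% lower in WT, and 20.6% and 40.1% in KO. A change of scaling moves the log2 changes of all genes by nearly the same amount. The median member therefore stood 0.135 above the median gene in WT and 0.06 above it in KO under both scalings. This distance cannot tell which scaling is right. Relative log expression scaling gave 36 members higher and 1 lower in WT and 7 and 6 in KO. Of all 15233 genes it called 4247 higher and 4323 lower in WT (27.9% and 28.4%), and 4416 and 4576 in KO. DESeq2 gave 38 members higher and 1 lower in WT and 9 and 7 in KO. Of all 15233 genes DESeq2 called 4288 higher and 4373 lower in WT, and 4428 and 4634 in KO. No called member changed its sign in any analysis.

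**Figure D4:**
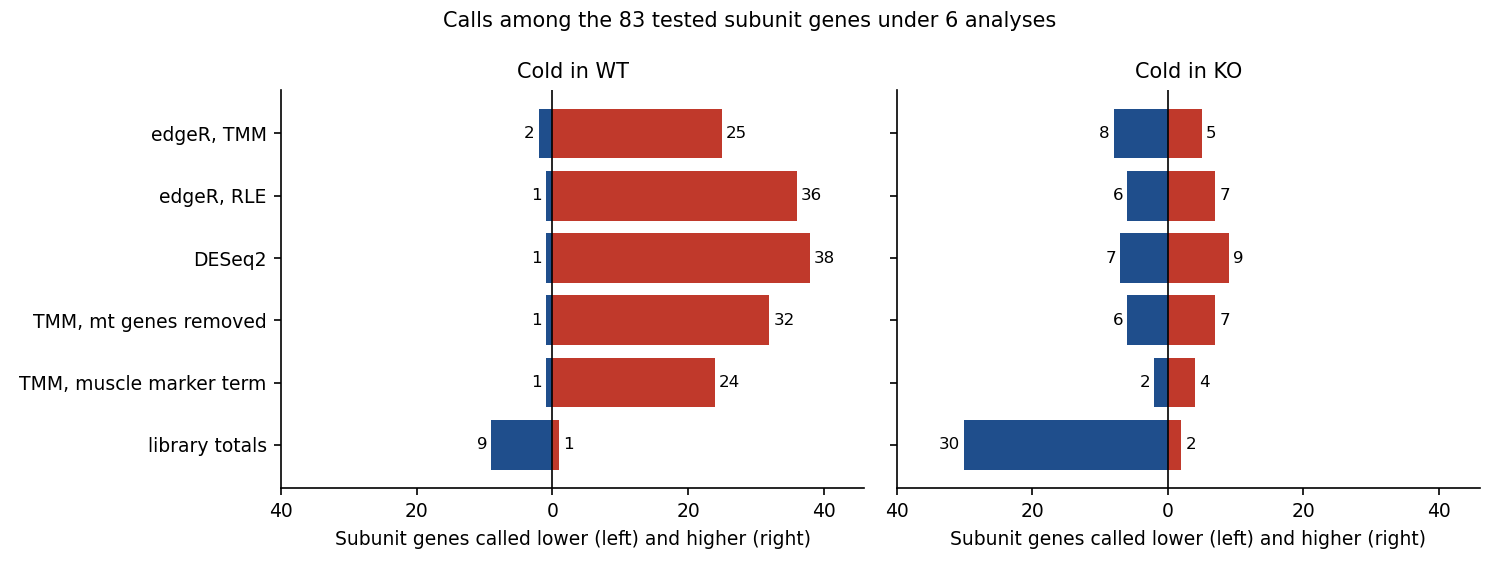
Number of members called higher (right) and lower (left) in the cold under 6 analyses, for WT and KO. The bars for WT point right (24 to 38 higher) under all but the scaling to library totals, where 1 was higher and 9 lower, and in KO that scaling gave 30 lower.

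Summed over all members, WT had 30740 ± 1486 CPM at RT and 32910 ± 1927 CPM in the cold (SD, n = 5), and KO 31973 ± 1332 and 32388 ± 1460 CPM. The ranges of all 4 groups overlapped. The sums of complex II were 3499 ± 233 and 3483 ± 288 CPM in WT and 3666 ± 145 and 3428 ± 190 CPM in KO, and those of complex V 9292 ± 444 and 10056 ± 674 CPM in WT and 9681 ± 373 and 10063 ± 455 CPM in KO. In bulk tissue fewer cells of a type and less RNA per cell cannot be told apart, which holds for every value here.

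The knockout itself called 1 member at each temperature. At RT, beside 2.7% of all genes called (1.38% higher and 1.32% lower), Cox7a2 was higher in KO by 0.22 ± 0.05 (edgeR adjusted p = 0.029), at 297 to 340 CPM against 252 to 300 CPM in WT, with overlap. This call was lost without WT at RT replicate 1, 3, 4 or 5 or KO at RT replicate 3 or 4 (0.19 to 0.22, edgeR adjusted p = 0.051 to 0.086). In the cold, beside 7.7% of all genes (3.51% higher and 4.19% lower), Cox6b2 was higher in KO by 0.82 ± 0.20 (edgeR adjusted p = 0.012), at 4.83, 4.86, 4.61, 4.98 and 3.47 CPM against 1.93, 3.51, 3.03, 2.60 and 1.79 CPM in WT. Only KO replicate 5 lay within the WT range, and the call passed in all 30 alternative analyses. At RT the difference was 0.68 ± 0.20 (edgeR adjusted p = 0.073) and did not pass, at 3.48 to 6.25 CPM against 2.10 to 3.79 CPM.

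Cox6b2 is a low gene, and its general partner Cox6b1 differed by 0.12 ± 0.06 at RT and -0.03 ± 0.06 in the cold without passing. Over all tested members the median difference between genotypes was 0.05 at RT and -0.04 in the cold. At RT the genotypes overlapped for every tested member, while 2.44% of all genes were above and 2.54% below without overlap. In the cold the KO libraries lay below all WT libraries for 3 members, Ndufa1, Ndufb5 and Atp5mpl (-0.25, -0.11 and -0.18), and above them for none, beside 3.74% and 3.26% of all genes. None of these 3 passed the test.

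The difference of the 2 cold changes, KO minus WT, passed for none of the 83 members in edgeR, beside 0.742% of all genes (0.427% higher and 0.315% lower), and for 1 member in DESeq2. At an unadjusted p under 0.05 in edgeR 10 members remained. The estimates leaned to one side: 75 of 83 members were below 0, with a median of -0.10, where 7652 of 15233 genes were below 0 with a median of 0.00. All 4 members of complex II, all 9 of complex III and all 17 of complex V were below 0. For Cycs the difference was -0.19 ± 0.08 (edgeR adjusted p = 0.44). The median over members stayed between -0.13 and -0.07 in the 29 alternative fits, and the estimates share the same 4 groups of libraries and so are not independent of each other.

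Several genes that serve the chain changed by more than 0.59, the largest value of any subunit in WT. The counts that follow stand beside 26.2% of all genes higher and 30.2% lower in WT and 27.5% and 31.7% in KO, and nothing is read from counts near those shares. Of the enzymes of cytochrome c heme supply, Hccs, which attaches heme to cytochrome c, rose by 1.65 in WT and 1.64 in KO, from 58.0 to 80.3 CPM in WT at RT to 178 to 233 CPM in WT in the cold. Fech, the last enzyme of heme synthesis, fell by 0.20 and 0.35, and Alas1, its first enzyme, changed by 0.10 in WT without passing and rose by 0.98 in KO. Of 13 genes of coenzyme Q synthesis and supply 2 rose and 5 fell in WT and 2 rose and 4 fell in KO, among them Coq8a (fell by 1.97 and 2.06), Coq10b (rose by 1.53 and 1.40) and Pdss1 (rose by 0.77 and 0.76).

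Assembly factors went in both directions, beside 56.4% of all genes called in WT and 59.2% in KO. For complex I 4 of 16 rose and 2 fell in WT and 3 rose and 7 fell in KO, with Ndufaf4 highest (0.61 and 0.45). For complex II Sdhaf1, Sdhaf3 and Sdhaf4 fell in both genotypes, by 0.54 to 0.79, while Sdhaf2 rose by 0.15 in WT. For complex III Ttc19 rose by 0.63 in both genotypes and Uqcc2 by 0.16 and 0.28, and Bcs1l, Lyrm7, Uqcc1 and Uqcc3 fell, by 0.22 to 0.62. For complex IV 8 of 23 rose and 3 fell in WT and 7 rose and 6 fell in KO, with Sco2, a copper chaperone, at 0.81 and 0.62 and Cox11 at 0.65 and 0.38. Of 4 factors of complex V only Atpaf2 passed, and it fell by 0.24 and 0.39.

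Of 17 regulators of mitochondrial genes, 6 rose and 4 fell in WT and 8 rose and 4 fell in KO, beside the same shares of all genes. Ppargc1a, the coactivator PGC-1 alpha, rose by 3.24 and 3.78, from 85.1 to 134 CPM in WT at RT to 601 to 1509 CPM in WT in the cold. Esrrb rose by 2.42 and 2.56, Esrra by 0.38 and 0.27, and Esrrg fell by 1.35 and 1.44, all receptors of the estrogen-related family. Nrf1 changed by 0.01 in WT without passing and rose by 0.37 in KO, and Tfam, which packs mitochondrial DNA, changed by 0.01 and -0.01 without passing. Ucp1 rose by 0.912 in WT and 1.121 in KO. Of the 13 mitochondrially encoded subunits 4 fell in WT (mt-Atp8, mt-Cytb, mt-Nd3 and mt-Nd6) and 1 in KO (mt-Nd6), beside 30.2% and 31.7% of all genes, and none rose, beside 26.2% and 27.5%. These lists were chosen with earlier results of these data known.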

How the data were processed

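Per the labels' protocols the mRNA libraries came from a stranded KAPA kit. The submitters' processing notes name Trim Galore 0.6.0, STAR 2.7.8a and the build GRCm38.p6 (mm10). The annotation release is not given in the sources used here. The deposited values are whole-number counts per gene, from which the reverse-strand counts (94.5% to 95.7% of stranded gene counts) were used. The 4 entries per table that name no gene were left out: reads not mapped (3.86% to 5.66%), mapped to more than 1 place (18.3% to 21.4%), in no gene (3.14% to 4.55%) or in more than 1 gene (1.02% to 1.16%). Names and exon lengths came from GENCODE M21, which held 55230 of the 55471 IDs.

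Counts were fitted in edgeR 4.0.16 (R 4.3.3) after filterByExpr (minimum count 10, total 15), TMM scaling and robust estimation, as a quasi-likelihood model of 4 group means (residual df 16), and p was adjusted over 15233 genes with a threshold of 0.05. The procedure was tested on simulated data in which few genes changed, in random directions. In the cold 56.4% of genes were called in WT and 59.2% in KO, so that test does not cover the scaling between RT and cold libraries. Within groups, pairs of libraries differed by 15.2 to 107.7 times counting error (chi-square per degree of freedom), so all were counted as separate libraries. Members, lists, motifs and the naming rule were chosen with earlier results of these data known. Named were up to 8 members called in each direction and comparison with a mean of at least 5 CPM, all isoform sets, electron carriers and catalytic subunits (1 is not reported here), and the 5 highest and 5 lowest levels. Of the related lists, up to 3 genes by size of change were to be named. Uqcr11, Uqcrb, the smaller rises in WT, Ndufa1, Atp5j and Cox5b fall outside the rule and were named after their values were seen. The same holds for Fech, Alas1, Nrf1, Tfam and the smaller assembly factors. Alternatives were other scalings, no filter, DESeq2 1.42.0, fits of the compared groups alone, the replicate number as a block, both strands, a muscle marker term, mitochondrial genes left out, each library left out, and library totals without TMM, the last added after the data were seen.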

Additional observations from a re-analysis of the deposited data

Results flagged for a closer look

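In 8 of 188 groups of 5 libraries, 1 library stood far from the others by Dixon's test, where chance gives about 1 in 20. Atp5g1 was at 3.22 CPM in WT at RT replicate 1, against 1.45 to 1.89 in the others. Atp5s was at 9.27 CPM in WT at RT replicate 5 against 12.1 to 13.3, and Ndufs1 at 567 CPM in replicate 4 of that group against 621 to 632. Cox8b was at 382 CPM in WT at RT replicate 2 against 323 to 340, a library with high muscle markers, whose part was not tested. Ndufv2 was at 437 CPM in WT in the cold replicate 4 against 366 to 382. Ndufa12 was at 104 CPM (103.5) in KO at RT replicate 5 against 111 to 113. In KO in the cold, Cox7a2l was at 109 CPM (109.4) in replicate 4 against 93.6 to 97.1, and Cox6b2 at 3.47 CPM in replicate 5 against 4.61 to 4.98.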

How the results depend on the processing

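No called member changed sign in any alternative. In WT, 19 of the 25 rises passed in all alternatives except library totals, and Cycs in all. DESeq2 called 38 members higher in WT, 9 in KO and 2 for KO against WT at RT. It called 2 lower for KO against WT in the cold and 1 for the difference of the cold changes. Both strands together gave 9 higher in KO. Members lower in WT numbered 1 under relative log expression, DESeq2, the compared groups alone, both strands, the muscle term and mitochondrial genes left out, and 4 without WT at RT replicate 4 and WT in the cold replicate 5 together. The muscle term gave 2 lower in KO and 2 higher for KO against WT at RT. Against WT at RT, no filter and the compared groups alone gave 0 higher, and in the cold no filter gave 1 lower. Library totals gave 1 higher and 9 lower in WT, 2 and 30 in KO, and against WT 0 higher at RT and 2 lower in the cold.

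With each library left out, 21 to 35 rose and 1 to 3 fell in WT, 5 to 11 rose and 4 to 8 fell in KO, 0 to 2 were higher in KO than in WT at RT and 1 in the cold, and 0 passed for the difference. Replicate numbers did not pair the libraries: deviations of same-numbered libraries correlated at -0.18 to 0.27, over 0.1 in 7 of 30 pairs, and 8 of 30 matched best with their own number. With the replicate number as a block, 1 member fell in WT and 0 were higher in KO at RT, and the other counts stayed within 1.5 times. Over single members, isoform ratios and motif shares together, 798 values under alternatives were counted as unchanged. For a member this means the same direction and side of the threshold. In 112 cases a member lost the call, and 8 isoform ratios moved with the length used by more than the spread between libraries. The cause of these shifts was not tested. With a median SE of 0.06 on the log2 scale, the smallest change called in the cold was -0.13 (Sdhc in KO). This value is no fixed limit of detection. In KO, Cox5b at 0.14 (edgeR adjusted p = 0.070) and Sdhd at -0.135 (edgeR adjusted p = 0.079) did not pass, and small changes may go undetected.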
